A study of Mus musculus with 23 samples.

Results

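Kit ligand (Kitl), its receptor Kit, the transcription factor Gata2 and histidine decarboxylase (Hdc) are known together from mast cells, and their 4 probes were picked by gene name from the 754 genes of a NanoString mouse myeloid panel. The panel counts colour-coded probes on total RNA without amplification, and here it was run on 23 left lungs, each from a separate mouse. Kitl (NM_013598.1), Kit (NM_001122733.1), Gata2 (NM_008090.4) and Hdc (NM_008230.4) were above the lower limit of the table in every lung, so none of the 92 values was missing or floored. Mice were wild type (WT) or Fat-1, and the Fat-1 transgene encodes a desaturase of Caenorhabditis elegans that turns omega-6 into omega-3 fatty acids. The labels do not name the promoter of the transgene or the background strain, and they give no age. All mice had received 14 instillations, either of organic dust extract or of the saline vehicle PBS, and every lung had been lavaged ahead of storage of its left lobe in RNAlater, which takes out part of the cells free in the airways. By the extract code there were 7 WT lungs after dust, 5 WT lungs after saline, 6 Fat-1 lungs after dust and 5 Fat-1 lungs after saline, with both sexes in each group. Extraction had been done on a pair of days, with 8 dust and 4 saline lungs on day 1 and 5 dust and 6 saline lungs on day 2.

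Mast cells mature in tissues under the cytokine Kit ligand, which signals through the tyrosine kinase receptor Kit. Gata2 is needed to make and keep mast cell identity, and histidine decarboxylase is the enzyme that makes histamine, which mast cells and basophils store in granules. None of the 4 genes is restricted to mast cells: in the lung, endothelial, epithelial and stromal cells make Kit ligand, Kit and Gata2 are also transcribed in endothelial and progenitor cells, and neutrophils and macrophages can make Hdc. In RNA of a whole lobe, fewer cells of a type and less RNA per cell cannot be told apart.

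The genes that define mast cells were at or near the floor in these lungs, so the 4 genes are described by name and not as a measure of mast cells. Of 24 mast cell and basophil genes listed, 11 were on the panel. Cpa3 (mast cell carboxypeptidase), Tpsb2 (a tryptase) and Ms4a2 (the beta chain of the IgE receptor) were at the floor in all 23 lungs. Cma1, a chymase, was above the floor in 2 of 13 dust lungs and 1 of 10 saline lungs. Fcer1a, the alpha chain of the IgE receptor, was above it in 3 dust and 4 saline lungs, with a highest value of 56.8. Gata1 was above the floor in 1 dust and 1 saline lung, Il4 in 2 and 1, Ccr3 in 4 and 3, and Il13 in 7 and 6. Il1rl1, the IL-33 receptor, was above it in 11 dust and 8 saline lungs, and Hpgds, a prostaglandin D2 synthase that macrophages also make, in 12 and 10. Values at the floor are listed at 20 in every lung, while the lowest value that could be measured differed between lungs and reached 84.3 in 1 of them. The summed value of the 11 genes ran from 264 to 383 in saline lungs and from 291 to 420.2 in dust lungs. Each gene at the floor adds 20 to these sums, so they are not a measured level. In the WT female saline lung of day 1, the sum of 278 held Hpgds at 77.8 and otherwise floor values.

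**Figure D1:**
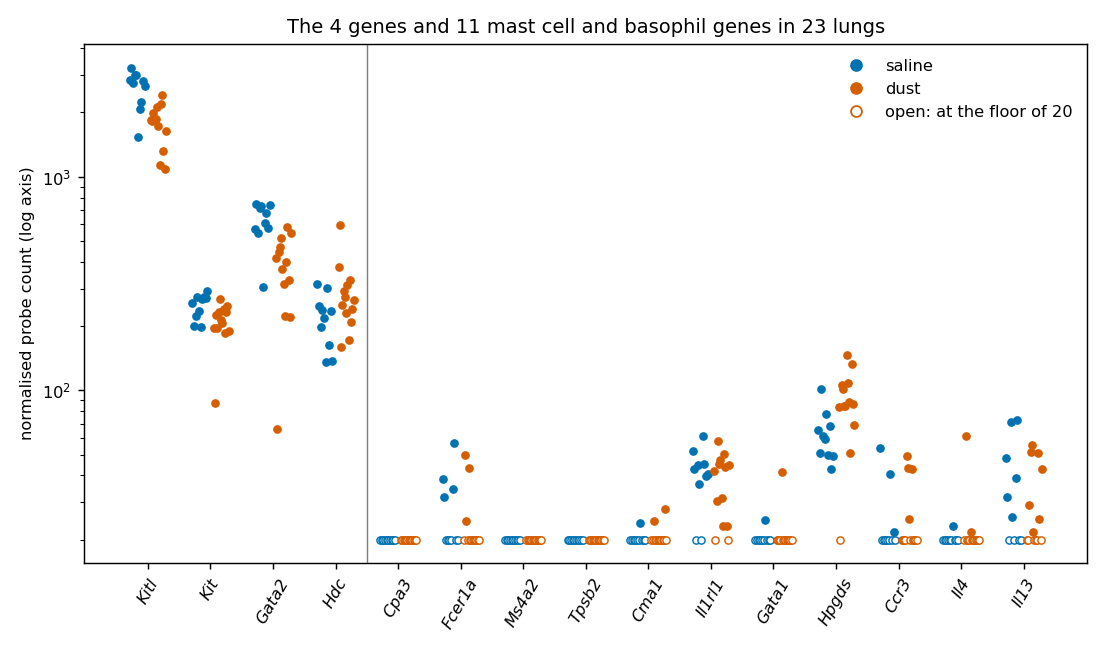
Normalised probe counts (log axis) of Kitl, Kit, Gata2 and Hdc, left of the line, and of the 11 mast cell and basophil genes on the panel, right of it, with 1 point for each of 10 saline and 13 dust lungs; open points are at the floor of 20. The 4 genes were above the floor in every lung, while Cpa3, Ms4a2 and Tpsb2 were at it in all 23; heights of different genes come from different probes and are not comparable.

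Labels, controls and depth differed between lungs in ways that touch these genes. The title, the characteristics and the extract code name different groups for 4 lungs, and in 3 of them the code says Fat-1 where the characteristics say WT. In all 3 the title goes with the characteristics and against the code. For the Fat-1 male saline lung of day 2, replicate 2, both also say female. For the WT male saline lung of day 2, replicate 2, the title alone differs and says WT female dust. Counts recovered from the table ran from 110453 to 812429 per lung. The lowest count of any of the 4 genes was 28, for Gata2 in the Fat-1 female dust lung of day 1, replicate 2. That lung had a ratio of positive control B to C of 1.07, against 2.66 to 3.51 in the other lungs. A saturation message accompanied 2 lungs, and the WT female saline lung of day 2, replicate 1, had the highest positive control counts, so results are also given without these 4 lungs.

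The starts of the genes are shown because Gata2 binds GATA motifs and Kit and Hdc are known as its targets in mast cells. The 250 bases before the transcript start that the RefSeq promoter table lists (GRCm38.p6) lie at chr2:126618679-126618928 on the minus strand for Hdc, at chr5:75574737-75574986 on the plus strand for Kit and at chr10:100015571-100015820 on the plus strand for Kitl. Capitals mark a GATA motif (the word AGATAA, its form AGATAG with a last G, its form TGATAA with a first T, or the form TGATAG with both changes, on either strand) in Hdc and Kit, and the TATA motif TATAAA on either strand in Kitl.
Hdc: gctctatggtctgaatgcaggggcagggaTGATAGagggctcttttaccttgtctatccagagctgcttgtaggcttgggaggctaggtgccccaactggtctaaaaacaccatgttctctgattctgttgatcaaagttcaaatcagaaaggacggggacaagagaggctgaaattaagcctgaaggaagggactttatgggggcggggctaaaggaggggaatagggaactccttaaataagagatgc
Kit: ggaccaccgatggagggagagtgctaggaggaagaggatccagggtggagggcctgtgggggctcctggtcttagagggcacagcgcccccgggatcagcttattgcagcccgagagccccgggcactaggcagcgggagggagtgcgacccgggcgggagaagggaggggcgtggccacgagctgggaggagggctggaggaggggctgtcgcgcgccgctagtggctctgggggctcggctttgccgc
Kitl: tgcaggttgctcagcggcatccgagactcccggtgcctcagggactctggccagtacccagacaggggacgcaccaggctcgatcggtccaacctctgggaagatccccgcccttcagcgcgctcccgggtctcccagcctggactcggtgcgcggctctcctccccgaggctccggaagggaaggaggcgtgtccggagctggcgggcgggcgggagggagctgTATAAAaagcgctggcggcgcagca
The Hdc window held 1 GATA motif, TGATAG, which began 221 bases before the start, and 26.5% of the 32851 windows of this length in the table held at least 1. No such motif was found in these letters of the first or the second listed Kit window, nor in either Gata2 window, at chr6:88193641-88193890 and chr6:88198414-88198663. The Kitl window held TATAAA 25 bases before the start, and 12.4% of windows held that word at any position on either strand. G and C made up 48.8% of the Hdc window, 70.8% of the Kit window and 69.2% of the Kitl window. The Hdc window lies inside the annotated gene, which spans chr2:126593659-126624025, and the annotated Kitl gene begins at base 100015615, inside its window, so for Hdc and Kitl the distances count from the listed start and not from the end of the gene. A match is a description of the letters and not a measured binding site.

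Kitl, the ligand, was lower after dust. In WT lungs after saline it measured 1536, 2078, 2243, 2651 and 2815 normalised probe counts, and in Fat-1 lungs after saline 2739, 2828, 2980.4, 2989 and 3245. After dust the 7 WT lungs ran from 1082 to 2423 with a median of 1637, and the 6 Fat-1 lungs from 1834 to 2119 with a median of 1859.8. In Fat-1 lungs the groups did not overlap, though how many other panel genes did the same was not counted. In WT lungs 3 of 7 dust values were under every saline value, and 2 of 5 saline lungs were above the highest dust lung. Over all lungs the mean was 1769.6 ± 397 after dust (SD, n = 13) and 2610.4 ± 512 after saline (SD, n = 10). The difference, averaged within genotype and sex on the scale of log2(value + 1), was -0.55 (SE 0.12, adjusted p = 0.00115, limma over 711 genes).

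That call stood on a panel where most genes moved. At an adjusted p under 0.05, 379 of 711 genes, or 53.3%, passed in this comparison, 308 of them higher (43.3%) and 71 lower (9.99%), and 2 of the 4 genes passed, Kitl and Gata2, both lower. The median difference of all 711 genes was 0.26, and 41 genes had a lower difference than Kitl. Centring each lung on the median of its 470 genes that were never at the floor moved the panel median to -0.13 and the split to 202 higher and 244 lower, with Kitl at -0.94. Centring also shifts values listed at the floor, and over the 470 genes alone the split was 205 higher and 59 lower as deposited and 123 higher and 188 lower after centring. Scaling to the housekeeping genes gave a panel median of 0.12 and a split of 255 higher and 115 lower. Kitl stayed lower on all of these scales, and in all 23 fits that each left out 1 lung its adjusted p was at most 0.00458.

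**Figure D2:**
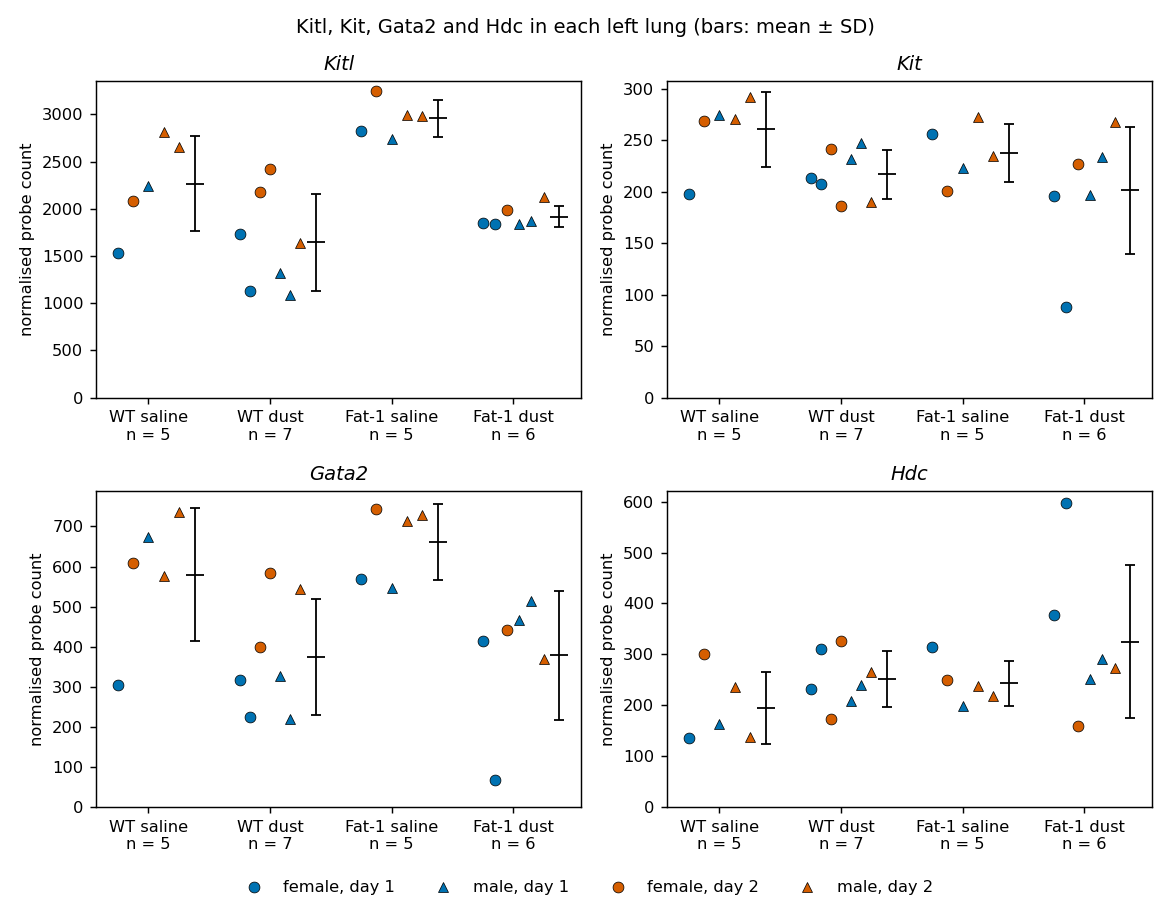
Normalised probe counts of the 4 genes in each lung, by genotype and exposure, with extraction day as colour and sex as marker, and the mean ± SD of each group as a bar. For Kitl and Gata2 the 6 Fat-1 dust lungs lie below the 5 Fat-1 saline lungs, a separation not counted over the panel. The Fat-1 female dust lung of day 1 with Gata2 at 66.2 and Kit at 87.5 has the highest Hdc, 598.

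Kitl differed between dust and saline in each genotype, by the mean of the female and male differences. Of the WT lungs, only males had a lower mean after dust (1347 against 2569, n = 3 each). WT females measured 1867 (n = 4) after dust and 1807 (n = 2) after saline. In WT lungs the difference was -0.47 (SE 0.17, adjusted p = 0.0395), where 35.3% of genes passed (30.7% higher, 4.64% lower), and in Fat-1 lungs -0.63 (SE 0.17, adjusted p = 0.0114), where 38.1% passed (32.2% higher, 5.91% lower). The WT call was lost in 7 of the 23 fits without 1 lung, with adjusted p up to 0.156 without the WT female saline lung of day 2, replicate 1. The Fat-1 call was lost in 1 of them, without the Fat-1 female saline lung of day 2, replicate 1 (-0.58, adjusted p = 0.0514). With the groups of the characteristics in place of the code, the Fat-1 difference was -0.65 at an adjusted p of 0.0766 and the WT difference -0.59 at 0.0156. The test of the genotype difference itself gave -0.16 for Kitl (95% interval -0.67 to 0.35, adjusted p = 0.999), so no genotype difference was detected.

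By mean level, Kitl was highest in Fat-1 saline lungs (2956 ± 193, SD, n = 5), then in WT saline lungs (2265 ± 504, n = 5), Fat-1 dust lungs (1916 ± 114, n = 6) and WT dust lungs (1644 ± 514, n = 7). Each neighbouring pair in that order overlapped. Fat-1 minus WT was 0.47 after saline (95% interval 0.08 to 0.86, unadjusted p = 0.0197, adjusted p = 1) and 0.31 after dust (95% interval -0.03 to 0.64, adjusted p = 0.979). No gene of the panel passed in either comparison: with limma 0 of 711 genes were called, and 10 after saline and 22 after dust had an unadjusted p under 0.05. With array quality weights 97 panel genes passed in dust lungs, Kitl among them (0.38, adjusted p = 0.0388). Of the 5 Fat-1 saline lungs, 2 are labelled WT by their characteristics, and with those groups the saline difference was 0.34.

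The 4 Fat-1 dust lungs of day 1 lay close together for Kitl, at 1834, 1839, 1850.3 and 1869 (1848 ± 15.5, SD, n = 4), although the recovered counts behind the lowest, 776, alone carry a 95% counting interval from 1708 to 1968. The 4 WT dust lungs of day 1 lay at 1082, 1131, 1321 and 1732, all below them, a separation that was not counted over the panel. By sex, WT female lungs averaged 1867 ± 568.1 after dust (n = 4) and 1807 ± 383 after saline (n = 2), and WT male lungs 1347 ± 278 after dust (n = 3) and 2569 ± 294 after saline (n = 3). The sex difference of the dust effect, male minus female over both genotypes, was -0.43 for Kitl (95% interval -0.94 to 0.09, adjusted p = 0.998) and was not detected. No gene of the panel passed that test (limma, 0 of 711, 14 at an unadjusted p under 0.05), nor the test of male minus female (0 of 711, 17 at an unadjusted p under 0.05).

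No sex difference was detected for the other genes either. The sex difference of the dust effect was 0.13 for Kit (95% interval -0.46 to 0.71), 0.12 for Gata2 (-1.07 to 1.32) and 0.10 for Hdc (-0.74 to 0.94), each at an adjusted p of 0.998. Male minus female, averaged over genotype and exposure, was 0.01 for Kitl (95% interval -0.24 to 0.27), 0.25 for Kit (-0.04 to 0.54), 0.38 for Gata2 (-0.22 to 0.97) and -0.24 for Hdc (-0.66 to 0.18), with adjusted p from 0.986 to 0.991.

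Kit, the receptor, was not called. In WT lungs after saline it measured 197.7, 268, 270.1, 275 and 292, and in Fat-1 lungs after saline 200.3, 223, 234, 256 and 272. The 7 WT dust lungs ran from 186 to 247 with a median of 213, and the 6 Fat-1 dust lungs from 87.5 to 268 with a median of 212. Groups overlapped in both genotypes, and 5 of the 10 saline lungs were above the highest dust lung, 268. The mean was 209.6 ± 44.1 after dust (SD, n = 13) and 249 ± 33.0 after saline (SD, n = 10), and the difference was -0.26 (95% interval -0.55 to 0.03, adjusted p = 0.123).

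Whether Kit passed depended on the scale. It was called lower after scaling to the housekeeping genes (-0.40, adjusted p = 0.0164) and after median centring (-0.65, adjusted p = 0.00134). Without the Fat-1 female dust lung of day 1, replicate 2, the lowest for Kit, the difference was -0.16 (adjusted p = 0.142), and without the 4 lungs in doubt it was -0.14 (adjusted p = 0.203). It passed without the Fat-1 female dust lung of day 2, replicate 1 (-0.33, adjusted p = 0.0361). The WT and Fat-1 differences were -0.23 (adjusted p = 0.386) and -0.30 (adjusted p = 0.240). By mean level the order was WT saline (261 ± 36.4, n = 5), Fat-1 saline (237 ± 28.1, n = 5), WT dust (217 ± 24.0, n = 7) and Fat-1 dust (201 ± 61.8, n = 6), with overlap between all neighbours.

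Gata2, the transcription factor, was lower after dust, with a wider spread than Kitl. In WT lungs after saline it measured 305, 576, 608, 674 and 737, and in Fat-1 lungs after saline 548, 568.3, 713, 729.9 and 744. The 7 WT dust lungs ran from 221 to 583 with a median of 327, and the 6 Fat-1 dust lungs from 66.2 to 514 with a median of 429. In Fat-1 lungs all 6 dust lungs were below all 5 saline lungs, a separation that was not counted over the panel. In WT lungs 3 of 5 saline lungs were above the highest dust lung, and the lowest saline lung, the WT female of day 1, lay among the dust lungs. The mean was 376 ± 146 after dust (SD, n = 13) and 620.3 ± 134 after saline (SD, n = 10), a difference of -0.82 (SE 0.28, adjusted p = 0.0223).

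The Gata2 difference was below 0 under all 16 other settings and in all 23 fits without 1 lung, and it was called in 11 and 21 of them. Only 18 of the 711 genes had a lower difference, while 322 had a smaller p. Without the Fat-1 female dust lung of day 1, replicate 2, the value shrank to -0.59 and stayed called (adjusted p = 0.0131). The call was lost without the Fat-1 female saline lung (-0.77, adjusted p = 0.0545) or the WT female saline lung (-0.69, adjusted p = 0.0705) of day 2, and it was lost without the 4 lungs in doubt (-0.46, adjusted p = 0.0768). It was also lost without the 4 lungs whose labels disagree (-0.84, adjusted p = 0.0877). Within genotype Gata2 did not pass, at -0.61 in WT (SE 0.40, adjusted p = 0.247) and -1.03 in Fat-1 (SE 0.41, adjusted p = 0.0553). The Fat-1 value was -0.58 (adjusted p = 0.114) without the lowest lung. The genotype difference was -0.42 (95% interval -1.61 to 0.78, adjusted p = 0.999). The mean levels ran from Fat-1 saline (660.7 ± 94.6, n = 5) over WT saline (579.9 ± 166, n = 5) to Fat-1 dust (379 ± 161, n = 6) and WT dust (374 ± 144, n = 7), with overlap between all neighbours.

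Hdc, the histamine-making enzyme, was higher on average after dust in the deposited scale, and the difference did not pass. In WT lungs after saline it measured 136, 138, 163, 236 and 300.1, and in Fat-1 lungs after saline 198, 217, 238, 249.6 and 314. The 7 WT dust lungs ran from 173 to 327 with a median of 239.99, and the 6 Fat-1 dust lungs from 159 to 598 with a median of 282. The ranges overlapped in both genotypes, and 3 dust lungs were above the highest saline lung. The mean was 285 ± 112 after dust (SD, n = 13) and 219 ± 61.7 after saline (SD, n = 10), and the difference was 0.33 (95% interval -0.09 to 0.75, adjusted p = 0.178), close to the panel median of 0.26.

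The sign of the Hdc difference turned with the scale. It was 0.19 after scaling to the housekeeping genes and -0.06 with each lung centred on its median. Without the Fat-1 female dust lung of day 1, replicate 2, the highest for Hdc, it was 0.22. In the fits without 1 lung, it passed only without the Fat-1 female dust lung of day 2, replicate 1 (0.46, adjusted p = 0.0202). Of the 16 other settings, it passed only in the lungs of day 1 alone (0.62). The WT and Fat-1 differences were 0.38 (adjusted p = 0.307) and 0.28 (adjusted p = 0.458). Mean levels ran from Fat-1 dust (325 ± 151, n = 6) over WT dust (251 ± 54.8, n = 7) and Fat-1 saline (243 ± 44.1, n = 5) to WT saline (194.6 ± 71.6, n = 5), with overlap between all neighbours.

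Fat-1 and WT lungs were not told apart by Kit, Gata2 or Hdc within an exposure. After saline Fat-1 minus WT was -0.11 for Kit (95% interval -0.55 to 0.33), 0.30 for Gata2 (-0.61 to 1.20) and 0.39 for Hdc (-0.24 to 1.02), each with an adjusted p of 1. After dust it was -0.18 for Kit (-0.56 to 0.20), -0.12 for Gata2 (-0.90 to 0.66) and 0.29 for Hdc (-0.26 to 0.84), with adjusted p from 0.979 to 0.987. The Gata2 intervals are the widest of the 3, and each of the 6 intervals holds 0. The genotype difference of the dust effect was -0.07 for Kit (95% interval -0.65 to 0.51) and -0.10 for Hdc (-0.94 to 0.74), both at an adjusted p of 0.999, and with limma 0 of 711 genes passed that test (21 at an unadjusted p under 0.05).

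**Figure D3:**
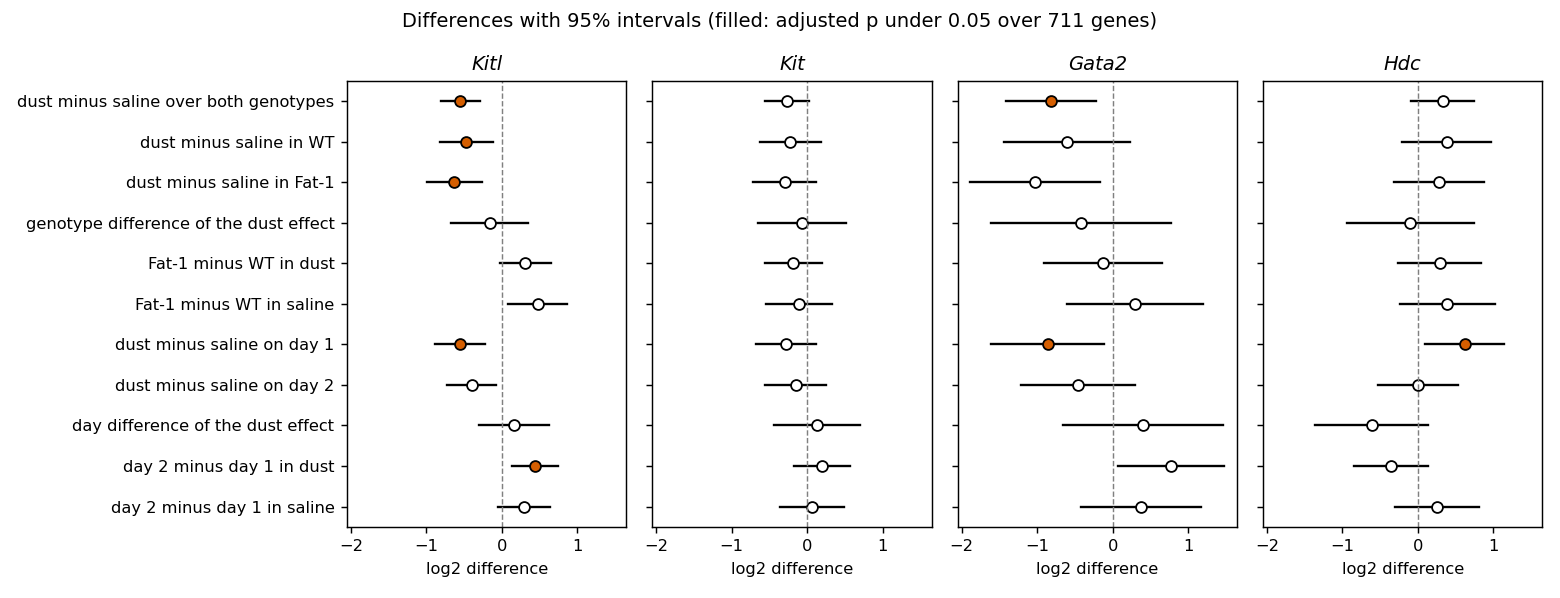
Differences on the log2 scale for each gene and each comparison other than those of sex, with 95% intervals from limma; filled points have an adjusted p under 0.05 over the 711 genes. Kitl is filled in 5 comparisons, Gata2 in 2, Hdc in 1, on day 1, and Kit in none.

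The comparison was also made within each extraction day. On day 1, where 53.2% of genes passed (41.6% higher, 11.5% lower), Kitl measured 1082 to 1869 in 8 dust lungs and 1536 to 2828 in 4 saline lungs, a difference of -0.56 (SE 0.16, adjusted p = 0.00530). On day 2, where 13.2% passed (12.8% higher, 0.422% lower), it measured 1637, 1983, 2119, 2182 and 2423 in dust lungs and 2078 to 3245 in 6 saline lungs, a difference of -0.40 (SE 0.16, adjusted p = 0.0970). The day difference was 0.15 for Kitl (95% interval -0.31 to 0.62, adjusted p = 0.691), in a test that 1.69% of genes passed, all as lower. The Gata2 difference was -0.86 on day 1 (SE 0.36, adjusted p = 0.0497) and -0.46 on day 2 (SE 0.36, adjusted p = 0.483). The day 1 call of Gata2 was lost in 15 of the 23 fits without 1 lung, with values from -1.05 to -0.56, and kept in 6 of 13 other settings, with values from -1.34 to -0.42, the last with the replicate number as a block (adjusted p = 0.411).

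Hdc passed on day 1 alone of the 2 days. The 8 dust lungs ran from 209 to 598 with a median of 272, and the 4 saline lungs measured 136, 163, 198 and 314, a difference of 0.62 (SE 0.25, adjusted p = 0.0447). That call was lost in 11 of the 23 fits without 1 lung, among them the Fat-1 female dust lung of replicate 2 (0.50, adjusted p = 0.0784) and the WT female saline lung (0.44, adjusted p = 0.195), and it was kept in 3 of 13 other settings, with values from 0.14 after median centring (adjusted p = 0.660) to 0.84. On day 2 the difference was 0.0037 (95% interval -0.52 to 0.53). The test of the day difference gave -0.61 for Hdc (95% interval -1.36 to 0.13, adjusted p = 0.289), so no day difference was detected. For Kit it was -0.28 on day 1 (adjusted p = 0.225) and -0.15 on day 2 (adjusted p = 0.687).

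Within dust lungs, Kitl was higher on day 2 than on day 1, at 2069 ± 289 (SD, n = 5) against 1582 ± 344 (n = 8). The difference was 0.44 (SE 0.15, adjusted p = 0.0470), where 15.2% of genes passed (1.97% higher, 13.2% lower), and it was lost in 16 of the 23 fits without 1 lung, with values from 0.35 to 0.52. Gata2 measured 468 ± 92.6 on day 2 and 319 ± 147 on day 1, a difference of 0.78 (95% interval 0.08 to 1.48, adjusted p = 0.105). Among saline lungs Kitl measured 2793 ± 402 on day 2 (n = 6) and 2336 ± 592 on day 1 (n = 4), a difference of 0.29 (95% interval -0.06 to 0.63, adjusted p = 0.874), where 0.141% of genes passed. Day 2 minus day 1 in dust lungs was 0.19 for Kit (95% interval -0.18 to 0.57) and -0.36 for Hdc (-0.85 to 0.13), neither of which passed. In saline lungs it was 0.06 for Kit (-0.36 to 0.49), 0.38 for Gata2 (-0.42 to 1.17) and 0.26 for Hdc (-0.30 to 0.81), each at an adjusted p of 0.9995. The day difference of the dust effect was 0.13 for Kit (-0.44 to 0.70) and 0.40 for Gata2 (-0.66 to 1.47), and neither passed. Cartridge here stands for the stage position in the file headers, which was taken as the cartridge. For 19 of 23 lungs, day and stage position went together, so extraction day and stage position cannot be told apart for those lungs.

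**Figure D4:**
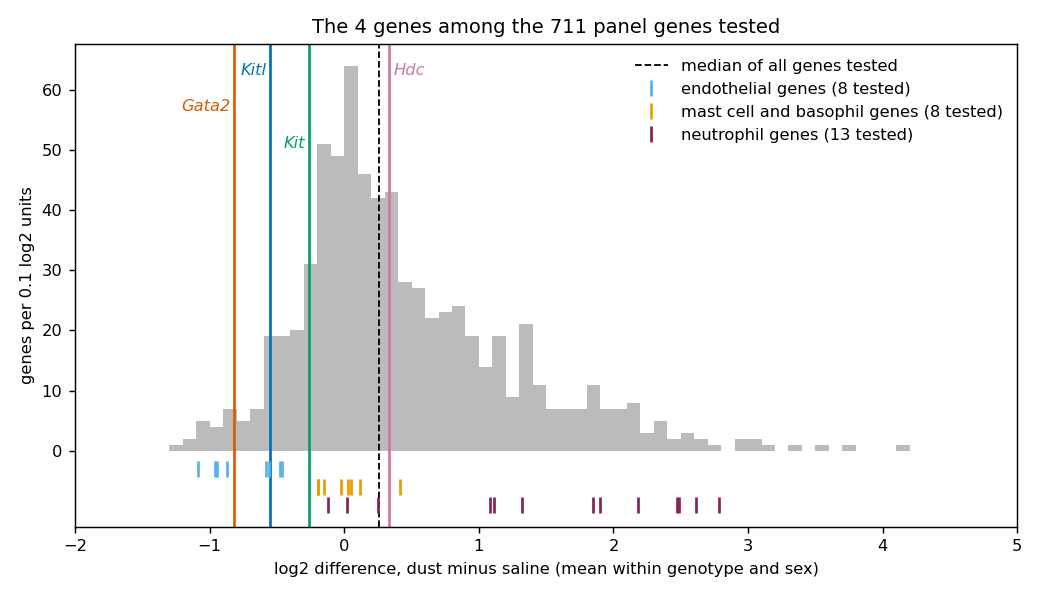
Histogram of the log2 difference, dust minus saline, over the 711 genes tested, with the 4 genes as vertical lines, the panel median as a dashed line, and tick marks for the tested genes of 3 lists. Gata2 (-0.82) and Kitl (-0.55) lie in the lower tail with the endothelial genes, Kit (-0.26) is nearer the centre and Hdc (0.33) is near the median of 0.26.

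Genes of other cells moved in the same comparison. All 8 endothelial genes on the panel, of 19 listed, fell after dust, with a median of -0.72, where 9.99% of all 711 genes were called lower. Cdh5, the endothelial cadherin, measured 1572 ± 196 after saline and 1069.6 ± 200.4 after dust (log2 difference -0.58, adjusted p = 0.000284). Tek, the angiopoietin receptor, fell by 0.96, the vascular phosphatase gene Ptprb by 0.87 and the cadherin gene Cdh13 by 0.95. The summed value of the 8 genes ran from 10158 to 13476 in saline lungs and from 3098 to 10678 in dust lungs. The lung with the lowest Gata2 and Kit had the lowest sum, 3098, and the WT female saline lung of day 1, with the lowest Gata2 among saline lungs, had the highest, 13476. Without the 4 lungs in doubt 7 of the 8 passed. The part of endothelial RNA in the Kitl and Gata2 results was not tested.

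Of 19 neutrophil genes listed, 15 were on the panel, and 10 of the 13 tested rose after dust, with a median of 1.85, where 43.3% of all genes were called higher. Csf3r, the receptor of granulocyte colony-stimulating factor, measured 106 ± 32.6 after saline and 926 ± 756 after dust. Fpr2 and Fpr1, receptors of formyl peptides, differed by 2.47 and 1.08, and the decoy receptor gene Il1r2 by 1.90. The summed value of the 15 genes ran from 7718 to 44247 in dust lungs of day 1, from 2393 to 19624 in dust lungs of day 2 and from 2049 to 4054 in saline lungs. The highest sum was in the WT female dust lung of day 1, replicate 2, where Hdc was 311, and the lung with the highest Hdc had a sum of 34261. Of 16 monocyte and macrophage genes tested, 15 rose, against the same 43.3%. The part of neutrophil and macrophage RNA in the Hdc result was not tested.

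Genes that act with the 4 moved unevenly. Of 35 genes listed for signalling from Kit, 13 were on the panel, and 8 rose and none fell, with a median of 0.62, beside 43.3% of all 711 genes called higher, 9.99% called lower and a panel median of 0.26. Vav1, a signalling protein of white blood cells, measured 146 ± 50.9 after saline and 585 ± 262 after dust (2.11, adjusted p = 6.1e-05). The kinase genes Pik3cg and Syk differed by 1.04 and 1.47, and Lat2, an adaptor of the IgE receptor, by 1.31. These genes are expressed across white blood cells, and after median centring the count was 5 higher and 3 lower. Of 8 tested cytokines and receptors that support mast cell growth, 5 rose and none fell, with a median of 0.52, beside the same shares. Tgfb1 differed by 0.74, the receptor gene Il4ra by 1.03, the alarmin gene Il33 by 0.63 and Csf2 by 0.69, and after median centring 2 were higher. Il10 was at the floor in every lung.

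Of the 8 mast cell and basophil genes tested, none passed, but most have no measured level in most lungs: Gata1 was at the floor in 21 of 23 lungs, Cma1 and Il4 in 20, and Fcer1a and Ccr3 in 16. Il1rl1 and Il13 were above the floor in more lungs, with highest values of 61.3 and 72.7. The lowest measurable value reached 84.3, in the Fat-1 male saline lung of day 1. The differences of all these genes are therefore not read, and only for Hpgds, above the floor in 22 lungs, is one given (0.42, adjusted p = 0.177). The Hpgds value at the floor belonged to the Fat-1 female dust lung of day 1, replicate 2, where the lowest measurable value was 47.3. The other dust lungs ran from 51.2 to 147 for Hpgds and the saline lungs from 43.0 to 101, so that difference rests in part on an unmeasured value. Among 9 histamine and lipid mediator genes 3 rose and 1 fell, near the panel shares of 43.3% and 9.99%. Alox5ap, needed for leukotriene synthesis, differed by 1.08, the prostaglandin synthase gene Ptgs1 by 0.39 and the leukotriene receptor gene Cysltr1 by 0.55, while Hpgd, which breaks prostaglandins down, differed by -1.10. After median centring 1 was higher and 2 were lower. Of 5 eosinophil genes tested, Ear6 (0.63) and Siglecf (0.62) rose, a share near that of the panel, and Ear6 was above the floor in 11 of 23 lungs. After median centring no eosinophil gene was higher. Among 3 stem and progenitor genes Flt3 rose (1.08), with Cd34 at 0.10 and Cebpa at -0.03. Among 3 innate lymphoid genes Id2 rose (0.58), Gata3 fell (-0.67) and Areg was at 0.64. Of 6 fibroblast and matrix genes 4 rose, of 2 epithelial genes 1, and of 6 T and B cell genes 4, beside 43.3% of the panel.

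The genes most like each of the 4 were sought by the correlation of residuals from the 8 group means over the 23 lungs, among the 469 other genes never at the floor, as a description with no test. For Kitl they were Erg (r = 0.75), an endothelial transcription factor, Lrp6 (r = 0.72) and Bmp6 (r = 0.71). For Kit they were Ets1 (r = 0.88), Glg1 (r = 0.88) and H2-DMa (r = 0.87), and for Gata2 Tspan7 (r = 0.95), Sptbn1 (r = 0.95) and Yap1 (r = 0.92). For Hdc they were Dusp6 (r = 0.83), Bcl10 (r = 0.72) and Fas (r = 0.70). All genes of a lung share its scale factor and depth, and the lung with the lowest Gata2 weighs in these values. With it dropped after the group means were taken, the r of Hdc with Fas was 0.59 and that of Kit with Glg1 0.75. None of the 4 genes was among the nearest 3 of another. Among the 469 genes ordered by likeness to Kit, Gata2 stood at rank 54 (r = 0.61, and 0.28 with that lung dropped in the same way), and Kitl and Gata2 had r = 0.53.

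Correlations between the 4 genes were computed within 13 dust and within 10 saline lungs, 12 relations in all, with p from 100000 permutations. None passed after Benjamini-Hochberg adjustment. Kit and Hdc ran opposite in dust lungs (Pearson r = -0.78, permutation p = 0.00522, adjusted p = 0.0626; Spearman rho = -0.57, permutation p = 0.0448, adjusted p = 0.292). Without the 2 lungs farthest from the median of Kit, r for Kit and Hdc was -0.62, and within the 8 dust lungs of day 1 it was -0.88. Those 8 include the Fat-1 female dust lung of replicate 2, with Kit at 87.5 and Hdc at 598, which the first of these values leaves out. In saline lungs Kit and Hdc had r = 0.09 (permutation p = 0.795, adjusted p = 0.868; rho = -0.05, permutation p = 0.892, adjusted p = 1). Kitl and Gata2 in saline lungs had r = 0.79 (permutation p = 0.0215, adjusted p = 0.129; rho = 0.54, permutation p = 0.113, adjusted p = 0.400), which fell to 0.20 without the 2 lungs farthest from the median of Kitl and so rested on them. In dust lungs Kitl and Gata2 had r = 0.36 (permutation p = 0.227, adjusted p = 0.389; rho = 0.56, permutation p = 0.0487, adjusted p = 0.292). Dust lungs of day 2 and saline lungs of day 1 were under 6 and gave no value of their own.

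**Figure D5:**
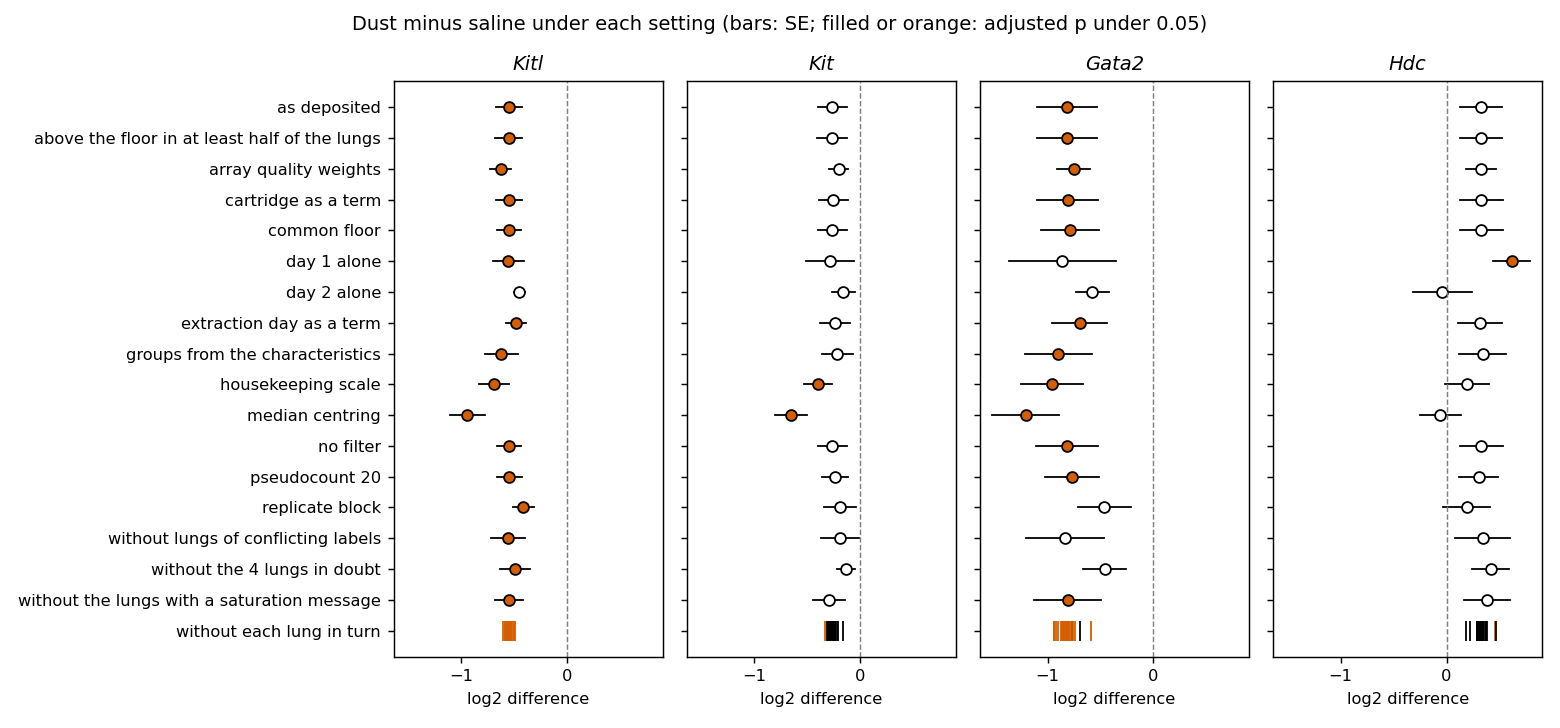
The log2 difference, dust minus saline, of each gene as deposited and under 16 other settings, with SE bars, and in the lowest line 1 tick for each of the 23 fits that left out a lung; filled points and orange ticks have an adjusted p under 0.05. Kitl is filled in all settings but day 2 alone (-0.45), Gata2 in 11 of the 16, and Hdc lies below 0 after median centring (-0.06) and on day 2 alone (-0.04).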

How the data were processed

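The deposited table holds 1 signal value per gene and lung, namely nCounter probe counts that the authors multiplied by 1 scale factor per lung, per the file headers and the spacing of the values. The factor ran from 0.682 to 4.21, and 100.0% of values above the floor were whole multiples of it within 0.1 steps. No value is listed under 20, and the counts behind that floor are hidden, so no count model was fitted. For the normalization software, the genes behind the factor and the genome build, the sources used here give no statement.

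Groups came from the extract code, since the labels conflict for 4 lungs. The log2 of each value plus a pseudocount of 1 was tested by limma (3.58.1, R 4.3.3) and Benjamini-Hochberg adjusted over the 711 genes above the floor in at least 1 lung, with 43 genes at the floor throughout left out. The 8 groups of genotype, sex and exposure shared 1 variance; comparisons by day used the 4 cells of exposure and day with genotype and sex as terms. A call means an adjusted p under 0.05. The fit was tested on simulated data. Correlations and Dixon ratios used numpy 2.4.6 and scipy 1.17.1, pandas 2.3.3 and matplotlib 3.10.9 in Python 3.11.15. Counting intervals (95%, exact Poisson) cover counting error only.

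The genes and lists were chosen with earlier results of these data known. Named were the 4 genes, the 3 genes most like each by residual correlation, all mast cell and basophil genes on the panel, and up to 4 genes per list with the smallest p. The alternatives were housekeeping and median scaling, a common floor, a pseudocount of 20, other filters, the groups of the characteristics, lungs with conflicting labels left out, day, cartridge or a replicate block as a term, each day alone, array quality weights and each lung left out. Leaving out the 2 lungs with a saturation message, or 4 lungs in doubt, was chosen after seeing the data. Each lung is 1 mouse. Promoter windows are RefSeq's (GRCm38.p6), and all 4 genes matched by symbol. One result of the list of growth cytokines after median centring is not reported here.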

Additional observations from a re-analysis of the deposited data

Results flagged for a closer look

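Dixon's ratio was computed for each of the 4 genes in groups of 4 to 10 lungs, 40 groups of genotype and exposure, exposure and day, single groups and all saline lungs, many of which share lungs. In 5 of them a lung lay far from the others, and chance gives about 1 in 20. In the Fat-1 female dust lung of day 1, replicate 2, Kit was 87.46 against 195 to 247 in the other 7 dust lungs of day 1, and Hdc was 598.03 against 209 to 377 in the same lungs. Gata2 was 66.19 in that lung, while the 5 remaining lungs of Fat-1 mice after dust had 369 to 514. For Kitl it measured 1834, and the 3 further Fat-1 lungs with dust on day 1 had 1839 to 1869. In the WT female saline lung of day 1, replicate 1, Gata2 was 304.65 against 548 to 744 in the other 9 saline lungs, and Kit was 197.7 against 268 to 292 in the other 4 WT saline lungs. That lung had 232 genes at the floor, the highest number of any lung, and 157154 recovered counts.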

How the results depend on the processing

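Over 16 settings, 672 of 772 values of the 4 genes kept their direction and their side of the threshold; below, values are log2 differences, dust minus saline unless named, and where a setting changed a result the cause was not tested. With array quality weights, the call was lost for Hdc on day 1 (0.38), and a call was gained for Kitl on day 2 (-0.43) and for Fat-1 minus WT in dust (0.38) and Gata2 for day 2 minus day 1 in dust (0.60) and in Fat-1 (-0.65) and in WT (-0.86), and the sign turned for Kit for day 2 minus day 1 in saline (-0.028) and for the sex difference (-0.083), Gata2 for Fat-1 minus WT in dust (0.52) and for the genotype difference (0.22) and for the sex difference (-0.34) and Hdc on day 2 (-0.12). With the cartridge as a term, the call was lost for Gata2 on day 1 (-0.77) and Hdc on day 1 (0.62), and a call was gained for Kitl on day 2 (-0.41), and the sign turned for Kit for day 2 minus day 1 in saline (-0.056) and for the genotype difference (0.0034). With a common floor, the call was lost for Gata2 on day 1 (-0.82) and Hdc on day 1 (0.62). With no filter, the call was lost for Gata2 on day 1 (-0.86) and Hdc on day 1 (0.62). After median centring, the call was lost for Hdc on day 1 (0.14), and a call was gained for Kitl on day 2 (-0.66), Kit in Fat-1 (-0.69) and in WT (-0.62) and on day 1 (-0.76) and over both genotypes (-0.65) and Gata2 in Fat-1 (-1.42), and the sign turned for Hdc in Fat-1 (-0.11) and in WT (-0.011) and on day 2 (-0.26) and over both genotypes (-0.061). On the scale of the housekeeping genes, the call was lost for Hdc on day 1 (0.46), and a call was gained for Kit on day 1 (-0.45) and over both genotypes (-0.40) and Gata2 in Fat-1 (-1.16), and the sign turned for Hdc on day 2 (-0.11). With the groups of the characteristics, the call was lost for Kitl for day 2 minus day 1 in dust (0.40) and in Fat-1 (-0.65), Gata2 on day 1 (-0.84) and Hdc on day 1 (0.58), and the sign turned for Kitl for male minus female (-0.064), Kit for the genotype difference (0.11) and Hdc for the genotype difference (0.090). In the lungs of day 1 alone, the call was lost for Kitl in Fat-1 (-0.59) and in WT (-0.52) and Gata2 over both genotypes (-0.86), and a call was gained for Hdc over both genotypes (0.62), and the sign turned for Kit for Fat-1 minus WT in saline (0.037), Gata2 for Fat-1 minus WT in dust (0.095) and Hdc for the sex difference (-0.33). In the lungs of day 2 alone, the call was lost for Kitl in Fat-1 (-0.60) and in WT (-0.30) and over both genotypes (-0.45) and Gata2 over both genotypes (-0.58), and the sign turned for Kitl for male minus female (-0.030), Kit in Fat-1 (0.13) and for Fat-1 minus WT in dust (0.29) and for the genotype difference (0.58) and for the sex difference (-0.16), Gata2 for male minus female (-0.0087) and for the sex difference (-0.072) and Hdc in Fat-1 (-0.19) and over both genotypes (-0.041) and for Fat-1 minus WT in dust (-0.27) and for male minus female (0.015). With the stricter floor filter, a call was gained for Gata2 in Fat-1 (-1.03). Without the lungs of conflicting labels, the call was lost for Kitl for day 2 minus day 1 in dust (0.45) and in Fat-1 (-0.65) and in WT (-0.46) and Gata2 on day 1 (-0.82) and over both genotypes (-0.84), and the sign turned for Kitl for male minus female (-0.012), Kit for the day difference (-0.018) and for the genotype difference (0.046) and Hdc on day 2 (-0.13) and for the genotype difference (0.095) and for the sex difference (-0.038). Without the 4 lungs in doubt, the call was lost for Kitl in WT (-0.33), Gata2 over both genotypes (-0.46) and Hdc on day 1 (0.51), and a call was gained for Gata2 for day 2 minus day 1 in dust (0.68) and Hdc in WT (0.77), and the sign turned for Kit for day 2 minus day 1 in dust (-0.019) and for the day difference (-0.068) and for the sex difference (-0.26) and Gata2 for Fat-1 minus WT in dust (0.39) and for the sex difference (-0.55). Without the 2 lungs with a saturation message, the call was lost for Kitl in WT (-0.44), Gata2 on day 1 (-0.86) and Hdc on day 1 (0.62), and the sign turned for Kitl for male minus female (-0.019) and Hdc on day 2 (-0.0026).

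Leaving out each lung in turn changed a call or a sign in these results. Kitl ran from 0.35 to 0.52 for day 2 minus day 1 in dust, from -0.68 to -0.58 in Fat-1, from -0.58 to -0.36 in WT, from -0.49 to -0.33 on day 2, from -0.041 to 0.069 for male minus female. Kit ran from -0.31 to 0.026 for Fat-1 minus WT in dust, from -0.0087 to 0.18 for day 2 minus day 1 in saline, from -0.039 to 0.26 for the day difference, from -0.33 to -0.16 over both genotypes, from -0.20 to 0.14 for the genotype difference, from -0.084 to 0.26 for the sex difference. Gata2 ran from -0.36 to 0.32 for Fat-1 minus WT in dust, from 0.48 to 0.97 for day 2 minus day 1 in dust, from -1.26 to -0.58 in Fat-1, from -1.05 to -0.56 on day 1, from -0.94 to -0.59 over both genotypes, from -0.67 to 0.028 for the genotype difference, from -0.32 to 0.37 for the sex difference. Hdc ran from 0.44 to 0.77 on day 1, from -0.15 to 0.23 on day 2, from 0.19 to 0.47 over both genotypes, from -0.38 to 0.18 for the genotype difference, from -0.18 to 0.39 for the sex difference. A single lung therefore decides several of these calls. The lowest recovered counts were 28 for Gata2 and 37 for Kit, both in the Fat-1 female dust lung of day 1, replicate 2, and 42 for Hdc in the WT female saline lung of day 1. The 8 groups held 2 to 4 lungs each.

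With the replicate block, which takes the replicate number within extraction day as a term, the call was lost for Gata2 on day 1 (-0.42), Gata2 over both genotypes (-0.46), Hdc on day 1 (0.43), Kitl for day 2 minus day 1 in dust (0.29), Kitl in WT (-0.35), Kitl on day 1 (-0.44), and the sign turned for Gata2 for the day difference (-0.013). Whether the numbers pair the lungs is not known. The 65 pairs of the same day and number had residual correlations from -0.45 to 0.74 with a median of -0.01. The 49 pairs of the same day and another number ran from -0.52 to 0.77 with a median of 0.002. These residuals were taken from means of groups of 2 to 4 lungs, so the correlations cannot settle the question.

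The number of panel genes called moved by over 1.5 times in these comparisons. For dust minus saline over both genotypes it was 379, against 1 in the lungs of day 2 alone. For dust minus saline in WT it was 251, against 1 in the lungs of day 2 alone, 139 without the lungs of conflicting labels, 388 with array quality weights, 117 to 307 when each lung was left out. For dust minus saline in Fat-1 it was 271, against 6 in the lungs of day 2 alone, 69 without the lungs of conflicting labels, 122 without the 4 lungs in doubt, 160 with the replicate block, 167 with the groups of the characteristics, 164 to 336 when each lung was left out. For dust minus saline on day 2 it was 94, against 9 without the 2 lungs with a saturation message, 18 without the 4 lungs in doubt, 24 without the lungs of conflicting labels, 173 with array quality weights, 26 to 149 when each lung was left out. For the genotype difference of the dust effect it was 0, against 1 with a common floor, 4 in the lungs of day 2 alone, 0 to 1 when each lung was left out. For the sex difference of the dust effect it was 0, against 1 with a common floor, 3 without the 4 lungs in doubt, 6 in the lungs of day 2 alone, 0 to 1 when each lung was left out. For the day difference of the dust effect it was 12, against 1 with a common floor, 5 with the replicate block, 6 with the cartridge as a term or with no filter, 31 without the lungs of conflicting labels, 70 without the 4 lungs in doubt, 104 without the 2 lungs with a saturation message, 144 with array quality weights, 4 to 145 when each lung was left out. For Fat-1 minus WT in dust it was 0, against 3 in the lungs of day 2 alone, 97 with array quality weights, 0 to 5 when each lung was left out. For Fat-1 minus WT in saline it was 0, against 1 with a common floor or in the lungs of day 2 alone, 15 without the 4 lungs in doubt, 0 to 2 when each lung was left out. For day 2 minus day 1 in dust it was 108, against 2 with the replicate block, 180 with the cartridge as a term, 224 without the 2 lungs with a saturation message, 251 without the 4 lungs in doubt, 328 with array quality weights, 12 to 238 when each lung was left out. For male minus female it was 0, against 1 with array quality weights or with a common floor, 3 in the lungs of day 1 alone, 0 to 1 when each lung was left out. For day 2 minus day 1 in saline it was 1, against 0 with the cartridge as a term or with a pseudocount of 20 or without the 4 lungs in doubt, 3 with a common floor, 0 to 6 when each lung was left out.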
